A study of Mus musculus with 2 samples.

Results

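Lymphoid homing chemokines and their receptors were followed through 2 lung sections: the ligands Ccl19, Ccl21a, Cxcl13 and Cxcl12, and the receptors Ccr7, Cxcr5 and Cxcr4. These 7 genes were chosen by symbol out of 32285 annotated features, and not by a threshold on measured values. Visium spatial transcriptomics, which reads mRNA from an array of barcoded spots under a tissue section, gave 1 control and 1 metastatic section. The control was a lung of a mouse that received no treatment. The metastatic section came from a female Balb/c mouse that received 4T1 cells, a mouse mammary cancer line, into a mammary fat pad (m.f.p. model) at 6 to 8 weeks of age, and its lung was taken 21 to 23 days later. Each condition was thus 1 mouse, 1 section and 1 library. No difference between the sections has a replicate check, and condition, animal, library and tissue position cannot be told apart.

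Homing chemokines place lymphocytes and dendritic cells within tissue. CCL19 and CCL21 act through CCR7, which brings naive T cells and mature dendritic cells into lymph nodes by way of lymphatic vessels and high endothelial venules. CXCL13 acts through CXCR5 and gathers B cells into follicles, and stromal and follicular dendritic cells are its best known sources there. CXCL12 acts through CXCR4, is made by many stromal and endothelial cells, and retains leukocytes in bone marrow and other tissues. In the lung these genes are best known from bronchus-associated lymphoid tissue, which is sparse in unchallenged mice.

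Ccl21a and Cxcl13, the ligands whose distributions differed most plainly below, lie at chr4:42772860-42773993 on the minus strand and chr5:95956951-95961068 on the plus strand (GRCm38). Their 250 bases upstream of the annotated start are printed because both are cytokine-inducible homing genes that are often considered together. The sequences are those of RefSeq on GRCm38.p6, at chr4:42773992-42774241 for Ccl21a and chr5:95956689-95956938 for Cxcl13, written 5′ to 3′ on the strand of the gene. Capitals mark matches to a loose NF-kappaB-type pattern, GGG and CC with any 5 bases between them, and to TATAAA. Both were searched on both strands together with TTCNNNGAA, a STAT-type pattern.
Ccl21a: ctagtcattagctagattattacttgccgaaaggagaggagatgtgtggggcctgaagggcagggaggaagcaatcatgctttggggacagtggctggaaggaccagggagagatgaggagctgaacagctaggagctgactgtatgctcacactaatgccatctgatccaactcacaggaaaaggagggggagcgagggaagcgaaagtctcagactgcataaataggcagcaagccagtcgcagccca
Cxcl13: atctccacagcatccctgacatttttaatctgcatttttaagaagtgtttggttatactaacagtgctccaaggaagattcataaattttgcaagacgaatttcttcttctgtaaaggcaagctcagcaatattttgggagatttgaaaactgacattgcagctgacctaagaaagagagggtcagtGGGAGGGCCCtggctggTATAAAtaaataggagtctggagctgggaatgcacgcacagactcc
The Cxcl13 window held GGGAGGGCCC, whose first base lay 63 bases before the start, and TATAAA, whose first base lay 46 bases before it. None of the 3 patterns was found in the Ccl21a window. The NF-kappaB-type pattern occurred in 45.8% of 32851 promoter windows of the same length, TATAAA in 12.4% and TTCNNNGAA in 7.02%, so a match is a description of letters and not a binding site. Entries existed for 5 of the 7 genes, and Ccr7 and Cxcr5 were not among them.

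Copies of Ccl21 with near-identical transcripts limit what the Ccl21a counts mean. The annotated Ccl21b transcript matched that of Ccl21a over 400 of 402 aligned bases (99.5%), and the promoters of Ccl21a and Ccl21d were 99.6% identical, although those of Ccl21a and Ccl21b were only 41.7% identical. All counts in the family fell on a single Ccl21a feature, while a further feature also named Ccl21a, both Ccl21b and both Ccl21c features were at 0 in both sections. The value called Ccl21a is therefore uncertain between copies. A further feature named Ccl19 was at 0 as well.

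The control section held 1888 spots over tissue with 20329126 counts (median 9643.5 a spot) and the metastatic section 1110 spots with 14657881 counts (median 11334.5). The 858 array barcodes that occur in both files are positions of the same array layout and not shared cells. Levels are counts summed over spots per 10000 summed counts (CP10k), with exact 95% Poisson intervals in brackets. Each ratio has an exact 95% interval, taken from how the counts divide between its numerator and denominator. All these intervals cover counting error only. A spot is a small region of several cells, so fewer cells of a type and less RNA per cell cannot be told apart. Lung identity was plain, since alveolar spots held 362 CP10k of the AT2 (type 2 pneumocyte) list in the control and 224 in the metastatic section.

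Spots were placed in compartments by gene lists that held none of the 7 genes. Cardiac-type muscle spots, present in the control alone, carried atrial and pulmonary vein muscle genes (Myl7, Myh6, Sln). Lymphoid spots were the top 5% by B cell genes (Cd79b, Cd22, Bank1 and others) or by T cell genes (Cd3d, Trac and others). Airway and smooth-muscle-rich spots followed, the latter standing for perivascular tissue, although this list does not separate vessel from airway walls. All remaining spots were called alveolar. The metastasis cluster was the 1 of 5 expression clusters of the metastatic section with the highest tumour list level. Its leading genes were Mmp3, Ccl7, Saa3, Ccl2 and Top2a, at 37.1, 20.8, 13.4, 12.9 and 11.7 times their level elsewhere, and its 5 cell-division genes reached 5.16 CP10k against 0.317 far away.

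The tumour list itself was not specific to tumour. Its mean over spots was 10.3 CP10k in the cluster and 10.5 in the whole control section, so the cluster is named from its division genes and position. Those division genes are part of the tumour list that chose the cluster, so their level there is no separate check of the name. The cluster covered 155 spots, of which 123 formed a larger and 29 a smaller metastasis. The AT2 list still reached 51.6 CP10k in the cluster against 182 far from it, so the cluster is wider than pure tumour. Margin spots lay within 200 μm of it (108 spots), middle spots up to 500 μm (200 spots) and far spots beyond that (647 spots).

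Cxcl13, the B cell follicle chemokine, was the member that stood furthest apart between the sections. It had 22 counts in the control section and 194 in the metastatic section. The levels were 0.0108 CP10k [0.00678 to 0.0164] and 0.132 [0.114 to 0.152], a ratio of 12.2 [7.85 to 20]. No control spot held more than 2 counts, while the highest metastatic spot held 12. Of control spots 1.11% had a count, against 9.19% of metastatic spots. After thinning every spot to 5000 counts, which leaves out 362 control and 82 metastatic spots, the shares were 0.524% and 4.96%.

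The other ligands were level with the control or below it. Ccl21a fell from 2.54 CP10k [2.47 to 2.61] to 1.71 [1.65 to 1.78], a ratio of 0.675 [0.643 to 0.708], although 55.1% and 55.0% of spots held a count. Ccl19 had 0.0802 CP10k [0.0683 to 0.0935] in the control and 0.0614 [0.0494 to 0.0755] in the metastatic section, a ratio of 0.766 [0.585 to 0.997]. Cxcl12 was level, at 0.928 and 0.910 CP10k, with a ratio of 0.980 [0.913 to 1.05].

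Among the receptors, those of B and T cell homing were lower in the metastatic section. Ccr7 had 0.234 CP10k [0.214 to 0.256] in the control and 0.170 [0.149 to 0.192] in the metastatic section, a ratio of 0.726 [0.620 to 0.847]. Cxcr5 went from 0.0521 [0.0427 to 0.0631] to 0.0293 [0.0212 to 0.0395], a ratio of 0.563 [0.385 to 0.809]. Cxcr4 was level at 0.220 and 0.216 (ratio 0.980 [0.846 to 1.13]). The B cell transcripts moved with Cxcr5: Cd79a, part of the B cell receptor, had a ratio of 0.546 [0.482 to 0.618], and Ms4a1, which encodes CD20, 0.723 [0.569 to 0.913]. Cd3e, part of the T cell receptor complex, was higher in the metastatic section (ratio 1.42 [1.16 to 1.75]).

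Past 1.5-fold, 1 of the 7 members was higher and 1 lower. Over all 15050 genes with at least 20 counts, 9.79% were higher and 14.0% lower by that rule. The members' median log2 ratio was -0.38, against -0.08 over all genes. These section-wide values mix different tissue, since the metastases and the cardiac-type muscle each occurred in 1 section alone.

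**Figure D1:**
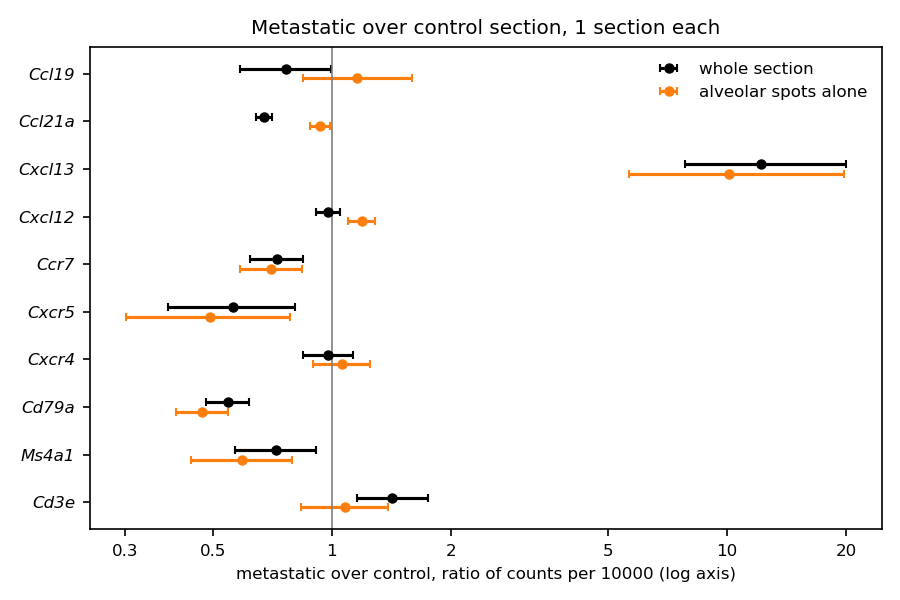
Ratio of each member and of Cd79a, Ms4a1 and Cd3e between the metastatic and the control section on a log axis, over the whole section (black) and over alveolar spots alone (orange); points are ratios of counts per 10000 and bars the exact 95% intervals of counting error. Cxcl13 lies at 12.2 and 10.1, far to the right of the other genes, while Cxcr5 and Cd79a lie below 1 in both.

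In alveolar spots alone Cxcl13 remained far higher in the metastatic section, at 0.102 CP10k [0.0817 to 0.125] against 0.0100 [0.00534 to 0.0172] (ratio 10.1 [5.64 to 19.8]). The difference was thus present outside the metastasis cluster. Ccl21a was nearly level there (0.936 [0.883 to 0.992]), Ccl19 had 1.16 [0.845 to 1.60] and Cxcl12 was slightly higher (1.19 [1.10 to 1.29]). Ccr7 (0.704 [0.585 to 0.843]) and Cxcr5 (0.493 [0.301 to 0.784]) stayed lower, as did Cd79a (0.470 [0.403 to 0.547]). Again 1 of 7 members was higher and 1 lower past 1.5-fold, where 5.73% of all genes were higher and 9.93% lower. The neutrophil list moved with these alveolar values, from 2.56 CP10k in the control to 30.4 in the metastatic section with none of its 6 genes at 0. Its part in them was not tested.

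**Figure D2:**
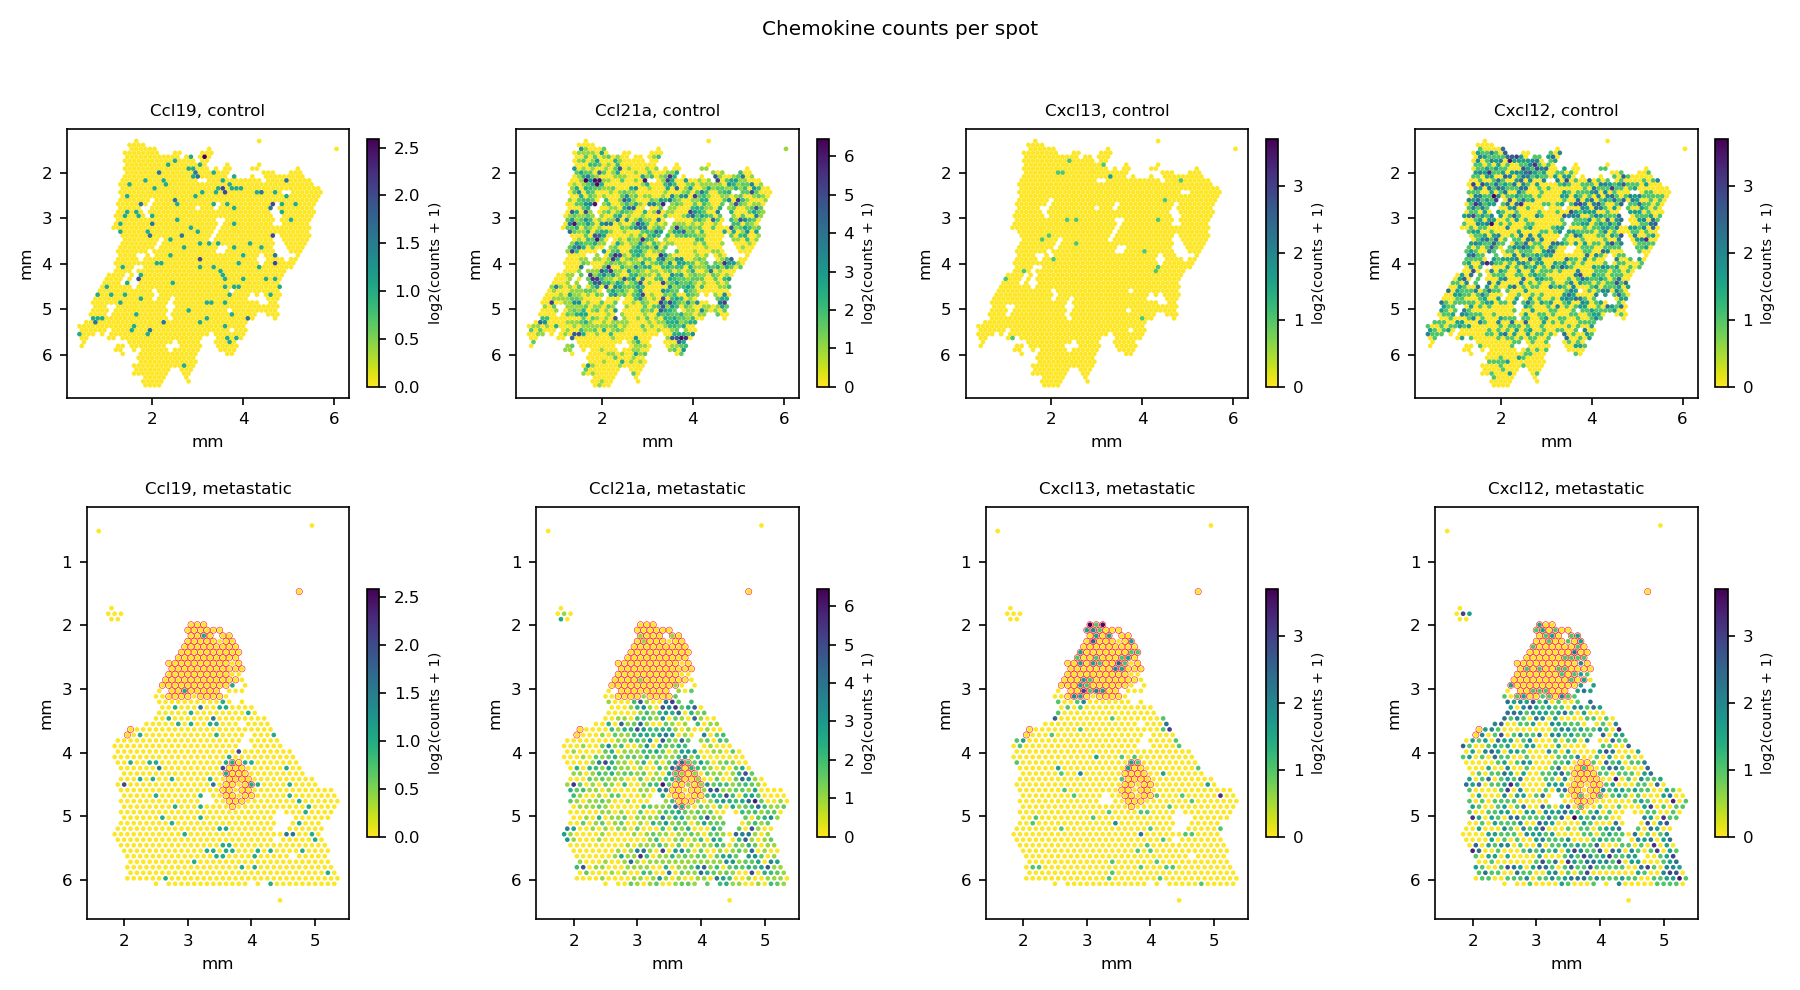
Counts of the 4 ligands in every spot of the control (top) and metastatic (bottom) section, as log2(counts + 1), with positions in mm and spots of the metastasis cluster outlined in red. Ccl21a is nearly absent from the larger metastasis at the upper end of the section and strong in the tissue below it, whereas Cxcl13 is concentrated inside it and along its upper tip.

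Ccl21a and Ccl19, the CCR7 ligands, were highest in cardiac-type muscle spots of the control section, and not in its lymphoid spots. Ccl21a had 8.42 CP10k [7.79 to 9.09] in cardiac-type muscle spots, 4.61 [4.24 to 5.0] in smooth-muscle-rich spots, 2.34 [2.09 to 2.62] in lymphoid spots, 2.28 [2.20 to 2.37] in alveolar spots and 1.60 [1.48 to 1.73] in airway spots. Lymphoid and alveolar spots, neighbours in this order, did not differ beyond their intervals (ratio 1.03 [0.910 to 1.15]), and each other step did. Ccl19 was also highest in cardiac-type muscle spots, at 0.395 CP10k [0.268 to 0.561] or 5.44 times alveolar spots [3.50 to 8.25]. It had 0.127 in smooth-muscle-rich, 0.105 in lymphoid and 0.0726 in alveolar spots, 3 levels with overlapping intervals, and 0.0200 in airway spots. Adventitial fibroblast genes were high in the same control spots, at 13.4 CP10k in cardiac-type muscle and 19.1 in smooth-muscle-rich spots against 4.00 in alveolar spots.

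The order changed in the metastatic section, where Ccl21a was highest in lymphoid spots. It had 6.63 CP10k [5.79 to 7.57] in the 38 lymphoid spots, 4.03 [3.37 to 4.79] in smooth-muscle-rich, 2.14 [2.04 to 2.24] in alveolar, 0.909 [0.802 to 1.03] in airway and 0.205 [0.152 to 0.269] in metastasis cluster spots. The lymphoid level was 3.10 times the alveolar level [2.69 to 3.57]. Ccl19 had 0.211 CP10k [0.0849 to 0.435] in lymphoid and 0.0938 [0.0193 to 0.274] in smooth-muscle-rich spots, on 7 and 3 counts with overlapping intervals. The Ccl21a level passed to 3.92 CP10k [3.61 to 4.25] in spots 100 μm from a lymphoid spot and to 1.66 [1.5 to 1.82] beyond 100 μm and up to 200 μm. In the control the corresponding levels were 2.34, 3.21 and 2.66, so the lymphoid spots themselves were not the highest ring there.

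A closer look at the vessels used spots in the top 5% of each cell type list within a section. For the vein and high endothelium list (Vwf, Slc6a2, Ackr1, Selp and others), Ccl21a had 8.48 CP10k in the rich spots against 2.30 in the rest of the control section, a ratio of 3.69 [3.40 to 4.01]. The same comparison gave 7.25 against 1.47 in the metastatic section, a ratio of 4.93 [4.44 to 5.47]. Only 4 of the 7 genes of this list had at least 20 counts over the sections, and Madcam1, an addressin of high endothelium, had 1 and 2 counts, so the list describes veins rather than high endothelial venules. Lymphatic-rich spots (Mmrn1, Prox1, Lyve1 and others) had ratios of 2.38 [2.11 to 2.67] and 5.21 [4.67 to 5.79] for Ccl21a. In artery-rich spots Ccl21a had ratios of 0.822 [0.671 to 0.997] and 0.987 [0.795 to 1.21]. High Ccl21a was not particular to vessel lists. Adventitial-fibroblast-rich spots had ratios of 4.09 [3.77 to 4.44] in the control and 2.43 [2.11 to 2.80] in the metastatic section. Control spots rich in cardiac muscle genes had 3.69 [3.43 to 3.96].

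Ccl19 showed the same venous lean on far fewer counts. Its ratio in vein-rich spots was 5.19 [3.32 to 7.84] in the control (28 counts there) and 2.87 [1.32 to 5.55] in the metastatic section (10 counts). Over neighbourhoods, each a spot with its adjacent spots, Ccl19 and Ccl21a correlated at r = 0.50 in the metastatic section (n = 1110) and r = 0.16 in the control (n = 1888). Neighbourhoods overlap and share 1 library, so these correlations are descriptions. Ccl21a correlated with the vein list at r = 0.58 and 0.41 in the metastatic and control section. The genes most like Ccl21a over both sections, of 10407 ranked, were Mmrn1 (r = 0.50 in the control and 0.62 in the metastatic section), a lymphatic endothelial gene, and Vwf (0.38 and 0.57), the von Willebrand factor of larger vessels. Slc6a2 (0.34 and 0.43), Thy1 (0.33 and 0.40) and Prss23 (0.32 and 0.52) followed. For Ccl19, ranked in the control alone among 11455 genes, the closest were Ank1 (r = 0.31), Trim54, Casq2, Gm15543 and Hrc (0.29 each), among which Casq2 and Hrc are genes of muscle calcium stores.

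Over both metastases together the CCR7 ligands were low in the cluster and highest in the margin. Ccl21a had 0.205 CP10k [0.152 to 0.269] in the cluster, 3.30 [3.01 to 3.61] in the margin, 1.98 [1.81 to 2.16] in the middle zone and 1.81 [1.72 to 1.90] far away. The cluster was at 0.113 [0.0837 to 0.149] of the far level and the margin at 1.82 [1.64 to 2.02] times it. In rings of 100 μm the level went from 0.0164 deeper than 400 μm inside to 0.764 at the inner rim, 2.77 at 100 μm and 3.79 [3.36 to 4.26] at 200 μm outside, then 1.79 at 300 μm. Ccl19 had 5 counts in the cluster, 21 in the margin and 49 far away. Its cluster level was 0.338 times the far level [0.105 to 0.843] and its margin level 2.46 times the far level [1.40 to 4.18].

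**Figure D3:**
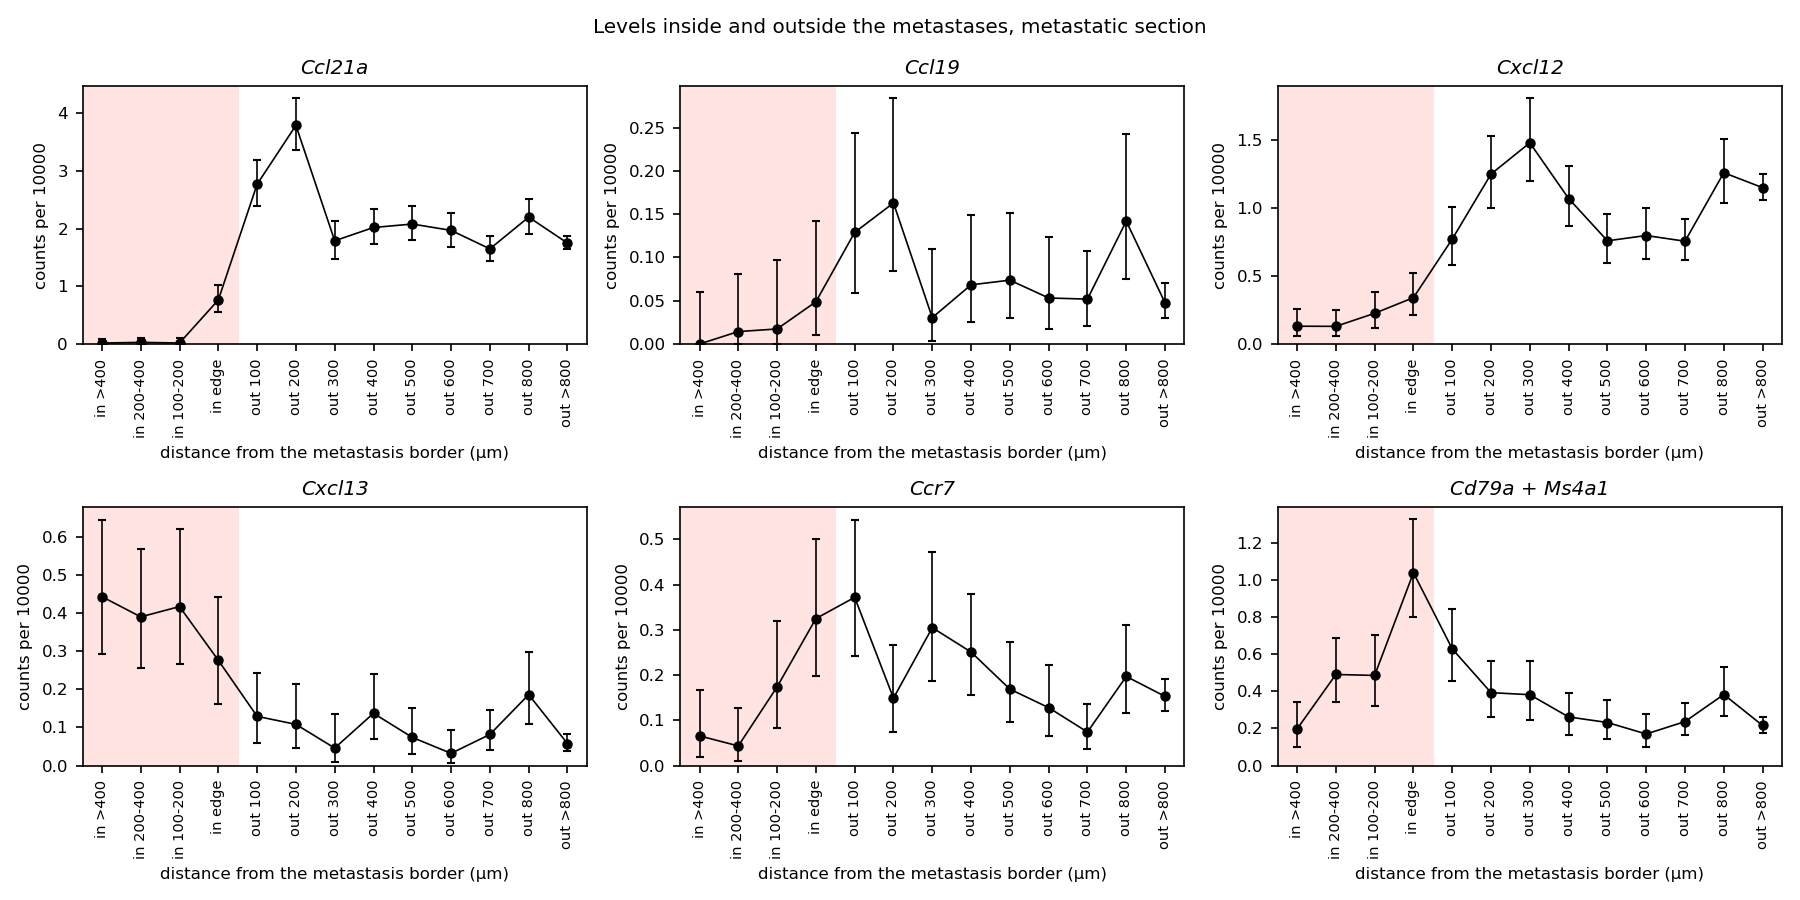
Counts per 10000 of the 4 ligands, of Ccr7 and of Cd79a plus Ms4a1 by distance from the rim of the metastasis cluster, inside to the left and outside to the right, with 95% Poisson intervals. Ccl21a is lowest deep inside (0.0164) and highest in the ring at 200 μm (3.79), whereas Cxcl13 is highest deep inside (0.443) and at 0.129 in the ring at 100 μm.

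The 2 metastases were unlike each other in these ligands. The larger held 5 Ccl21a counts over 123 spots (0.0219 CP10k [0.00711 to 0.0511]), while the smaller held 46 over 29 spots (2.46 [1.80 to 3.28]). For the smaller the ratio to far spots was 1.36, so the low Ccl21a of the cluster was a value of the larger metastasis. Ccl19 likewise had 2 counts in the larger metastasis (0.00876 CP10k [0.00106 to 0.0317]) and 3 in the smaller (0.160 [0.0331 to 0.469], 2.70 times the far level). All but 3 of the 29 spots of the smaller metastasis touch tissue outside it, and 1 spot there held 18 Ccl21a and 16 Cd79a counts. The margins did not show this difference, with 3.18 CP10k [2.75 to 3.67] around the larger and 3.38 [2.99 to 3.79] around the smaller metastasis. Vein genes were also scarce in the larger metastasis, at 0.346 CP10k against 3.48 far away, and their part in the Ccl21a level was not tested.

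Cxcl13 had the opposite distribution. It had 0.381 CP10k [0.308 to 0.466] in the cluster, 0.118 [0.0689 to 0.189] in the margin, 0.0886 [0.0556 to 0.134] in the middle zone and 0.0728 [0.0555 to 0.0937] far away. The cluster was at 5.24 times the far level [3.75 to 7.36], and it held 49.0% of the section's Cxcl13 counts with 17.0% of all its counts. The 3 zones outside the cluster did not differ beyond their intervals. Both metastases had it, at 0.394 [0.317 to 0.485] in the larger and 0.267 [0.0868 to 0.624] in the smaller. Lymphoid spots outside the cluster held only 2 counts (0.0603 [0.00730 to 0.218]), a level that did not differ from the alveolar 0.102 beyond its interval.

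Against the far zone, 2 of the 7 members were higher in the cluster past 1.5-fold (Cxcl13 and Cxcr5) and 4 were lower (Ccl19, Ccl21a, Cxcl12 and Cxcr4). The Cxcr5 value rests on 11 counts, its interval includes 1 (1.58 [0.696 to 3.38]), and the ratio was 0.514 with the core taken from the tumour list and 0.765 in inner spots alone. Cxcr4, at 0.563 [0.372 to 0.828], had 1.06 with the tumour list core and 1.21 for the smaller metastasis. Of all 13131 genes 38.1% were higher and 24.4% lower by that rule, so changes of this size were common there. Margin against far, 5 of 7 were higher (Ccl19, Ccl21a, Cxcl13, Ccr7 and Cxcr5) and 0 lower, where 22.7% of 12872 genes were higher and 6.12% lower. The intervals for Cxcl13 (1.62 [0.889 to 2.82]) and Cxcr5 (1.75 [0.632 to 4.20]) in the margin include 1.

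Cxcl13 counts were uneven from spot to spot. The 8 spots with 5 or more counts, a threshold set after the values were seen, held 60 counts or 30.9% of the section's total. Of these, 5 lay in the metastasis cluster and 3 outside it. The spots with 12 and 11 counts lay at the upper tip of the larger metastasis, both at the outer edge of the tissue. Leaving both out did not bring the metastatic level near that of the control, as given with the alternatives.

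These high spots carried mesothelial and fibroblast genes, and those of the cluster carried B cell genes as well. Mesothelium, the lining of the lung surface, was followed by Msln, Upk3b, Lrrn4, Wt1 and Muc16. In the 5 high spots of the cluster this list reached 1.98 CP10k [1.22 to 3.02], against 0.629 [0.522 to 0.750] in cluster spots neither among nor next to them. In the 3 high spots outside the cluster it reached 8.38 [5.69 to 11.9], against 0.351 [0.319 to 0.387] elsewhere. The adventitial fibroblast list (Pi16, Dcn, Col14a1, Dpt and others) had 4.05 and 10.3 CP10k in the same groups of high spots, against 1.85 and 2.51. Complement C3 stood at 48.0 and 112 CP10k there, against 11.4 and 5.79. Cd79a and Ms4a1 together were at 1.41 CP10k [0.791 to 2.33] in the cluster's high spots against 0.521 [0.425 to 0.633], but at 1 count in the 3 high spots outside it. The cluster value leans on 1 of its 5 high spots, which held 6 of their 8 Ms4a1 counts and 2 Cd79a counts. Another of the 5 held neither gene.

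Spots rich in mesothelial or fibroblast genes held much of the Cxcl13 of the metastatic section. In the 56 mesothelium-rich spots Cxcl13 had 61 counts and 0.988 CP10k, 10.4 times the rest [7.57 to 14.2]. In the 56 adventitial-fibroblast-rich spots it had 57 counts and 1.01 CP10k, also 10.4 times the rest [7.49 to 14.2]. Within the cluster the mesothelium-rich spots stood 4.46 times [2.76 to 7.03] above the others and outside it 14.6 times [9.28 to 22.4]. The fibroblast-rich spots had ratios of 9.95 [5.99 to 16.0] and 12.1 [7.72 to 18.6]. Within the cluster these values rest on 28 counts in 12 mesothelium-rich and 24 counts in 6 fibroblast-rich spots. The 2 cluster spots with most Cxcl13 held 12 and 11 counts, and their part in these ratios was not tested. B-cell-rich spots had a ratio of 7.48 [4.81 to 11.5] inside the cluster (37 counts in 17 spots), where the intervals of all 3 lists overlap, and 1.45 [0.387 to 3.83] outside it (4 counts in 39 spots). In vein-rich spots Cxcl13 had 1 count of 194 and in capillary-rich spots 0 of 194, where 3 counts are the floor. The 56 vein-rich spots all lay outside the cluster. Against the other spots there their Cxcl13 ratio was 0.192 [0.00482 to 1.10], an interval that includes 1. Spots rich in the list of follicular dendritic and reticular stroma genes (Cr2, Fcer2a and others) had a Cxcl13 ratio of 1.05 [0.416 to 2.21]. Of the 6 genes of this list 5 had a feature and 4 had at least 20 counts over the sections. The list is thus too thin to tell whether such stroma was present.

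The map led to a comparison of the outer edge of the tissue with the rest of the largest connected piece, chosen after the values were seen. The edge includes cut borders of the section. In the metastatic section Cxcl13 had 0.321 CP10k [0.245 to 0.412] in 151 edge spots and 0.105 [0.0877 to 0.124] in the other 949, a ratio of 3.06 [2.22 to 4.18]. Outside the cluster the ratio was 3.54 [2.21 to 5.53], and inside it 1.49 [0.941 to 2.31]. Mesothelial genes gave 2.44 and 0.179 CP10k in the same edge and inner spots. Ccl21a ran the other way, at 0.883 [0.755 to 1.03] against 1.84 [1.77 to 1.92]. The control section had a mesothelial edge as well, at 4.30 CP10k against 0.839 inside, yet 3 of its 22 Cxcl13 counts lay there (0.0176 [0.00363 to 0.0514]).

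The genes most like Cxcl13 over metastatic neighbourhoods, of 10603 ranked, were stromal and complement genes. Sfrp1, a secreted Wnt modulator, and C3 led with r = 0.53 each. Ifi27l2a, Cfb and Col3a1, a fibrillar collagen, followed with 0.51 each. Cxcl13 correlated with the mesothelium list at r = 0.43, the plasma cell list at 0.38 and the macrophage list at 0.35, with Cd79a and Ms4a1 at 0.20 and with Ccl21a at -0.17. Macrophage genes were high throughout the cluster, at 14.0 CP10k against 3.71 far away, as were plasma cell genes, at 0.967 against 0.120. Macrophage-rich spots had 3.52 times [2.29 to 5.25] the Cxcl13 of the rest of the section. The ratio was 0.824 [0.464 to 1.39] within the cluster and 10.3 [4.96 to 19.3] outside it, the latter on 11 counts in 17 spots.

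Cxcl12, the CXCR4 ligand, was present in alveolar and vascular tissue of both sections, and not there alone. In the control it had 1.21 CP10k [1.03 to 1.42] in smooth-muscle-rich, 1.11 [1.05 to 1.17] in alveolar, 1.07 [0.903 to 1.26] in lymphoid, 0.765 [0.583 to 0.984] in cardiac-type muscle and 0.243 [0.197 to 0.296] in airway spots. The first 3 levels did not differ beyond their intervals. The metastatic section had 1.5 [1.11 to 1.99] in smooth-muscle-rich, 1.32 [1.24 to 1.40] in alveolar, 1.24 [0.887 to 1.68] in lymphoid, 0.205 [0.152 to 0.269] in cluster and 0.192 [0.144 to 0.249] in airway spots. Artery-rich spots (Gja5, Gja4, Sox17 and others) were at 2.03 [1.62 to 2.50] and 2.39 [1.96 to 2.90] times the rest of their section. Over neighbourhoods of the metastatic section Cxcl12 correlated with artery, capillary and AT1 (type 1 pneumocyte) lists at r = 0.73, 0.70 and 0.67.

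Cxcl12 was low in the metastases and similar across the zones outside them. The cluster was at 0.193 of the far level [0.143 to 0.256], and margin, middle and far zones had 1.02, 1.06 and 1.06 CP10k. Single rings of 100 μm outside ran from 0.756 to 1.48 CP10k. Both metastases were low, at 0.206 [0.151 to 0.274] and 0.214 [0.0583 to 0.548]. AT1 and capillary genes were low with it, at 3.82 and 2.20 CP10k in the cluster against 35.5 and 14.3 far away. The closest genes over both sections were Timp3 (r = 0.49 and 0.68), Inmt, Sptbn1, Bcam and Pltp (0.48 or 0.49 in the control and 0.61 to 0.68 in the metastatic section). The 3 high Cxcl13 spots outside the cluster were rich in Cxcl12 too, at 4.60 CP10k [2.68 to 7.36].

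**Figure D4:**
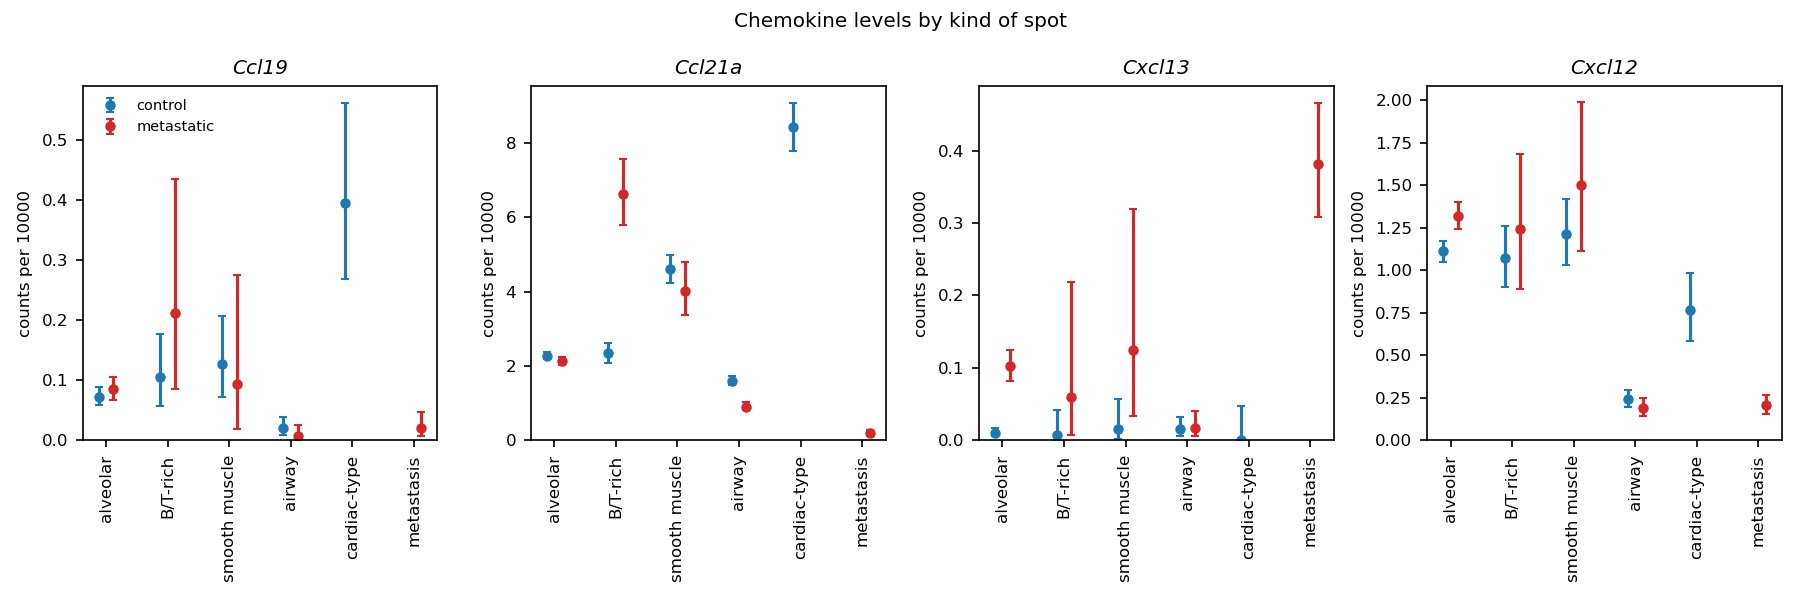
Level of each of the 4 ligands by compartment in counts per 10000 with 95% Poisson intervals, control and metastatic section side by side; "B/T-rich" stands for the lymphoid spots and "metastasis" for the cluster. Ccl21a is highest in cardiac-type muscle spots of the control (8.42) and in lymphoid spots of the metastatic section (6.63), and Cxcl13 in the metastasis cluster (0.381).

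All 3 receptors were highest in lymphoid spots of the control section. Ccr7 had 0.457 CP10k [0.349 to 0.587] there against 0.291 [0.262 to 0.322] in alveolar spots, a ratio of 1.57 [1.18 to 2.06]. Cxcr5 had 0.165 [0.103 to 0.249] against 0.0587 [0.0462 to 0.0734], a ratio of 2.81 [1.66 to 4.56], and the lymphoid spots held 20.8% of its counts with 6.57% of all counts. Cxcr4 had 0.404 [0.304 to 0.528] against 0.266 [0.239 to 0.296], a ratio of 1.52 [1.12 to 2.03]. Airway spots were lowest for Ccr7 and Cxcr4, at 0.0275 and 0.0451 CP10k.

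Of the 6 members with enough counts, 3 were thus higher in lymphoid than in alveolar spots past 1.5-fold and 0 lower, where 9.42% of 13625 genes were higher and 6.63% lower. In the metastatic section the count was 4 higher (Ccl19, Ccl21a, Ccr7 and Cxcr5) and 1 lower (Cxcl13) of 7, against 22.6% and 13.5% of 12822 genes. Ccr7 led these receptors, at 0.573 [0.345 to 0.895] against 0.205 [0.176 to 0.237], a ratio of 2.80 [1.65 to 4.50]. The Ccl19 ratio, on 7 lymphoid counts, was 2.50 [0.971 to 5.42]. Cxcr5 rested on 2 lymphoid counts (2.09 [0.239 to 8.36]) and had 0 after thinning. Cxcl13 rested on 2 as well (0.592 [0.0706 to 2.20]), and its ratio was 1.49 after thinning, 1.82 with the 98th percentile as threshold and 3.14 by neighbourhoods, so its direction there depends on the setting. Cxcr4 had 0.271 against 0.282, without a difference beyond the interval. Depth moved with the class in the control, with a median of 5751 counts in lymphoid spots against 9717 in alveolar spots.

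Smooth-muscle-rich, cardiac-type muscle and airway spots gave the remaining counts against alveolar spots. In smooth-muscle-rich spots 2 of 6 members were higher (Ccl19 and Ccl21a) and 2 lower (Ccr7 and Cxcr5) in the control, against 11.2% and 21.1% of all genes. The Ccl19 interval includes 1 (1.75 [0.959 to 2.99]) and Cxcr5 had 1 count. In the metastatic section 1 of 7 was higher (Ccl21a) and 0 lower, against 13.4% and 25.2%. Cardiac-type muscle spots had 2 of 6 higher (Ccl19 and Ccl21a) and 3 lower (Ccr7, Cxcr5 and Cxcr4), against 12.9% and 44.2%. In airway spots no member was higher past 1.5-fold and 5 of 6 were lower in the control, where 74.8% of all genes were lower and 8.33% higher. With haemoglobin, mitochondrial, surfactant protein, secretoglobin and immunoglobulin genes left out of the totals, Ccl21a stood at 1.32 times its alveolar level in control airway spots instead of 0.701, so its direction there rests on the scaling. In metastatic airway spots 0 of 7 members were higher and 7 lower, where 76.9% of all genes were lower and 6.02% higher.

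**Figure D5:**
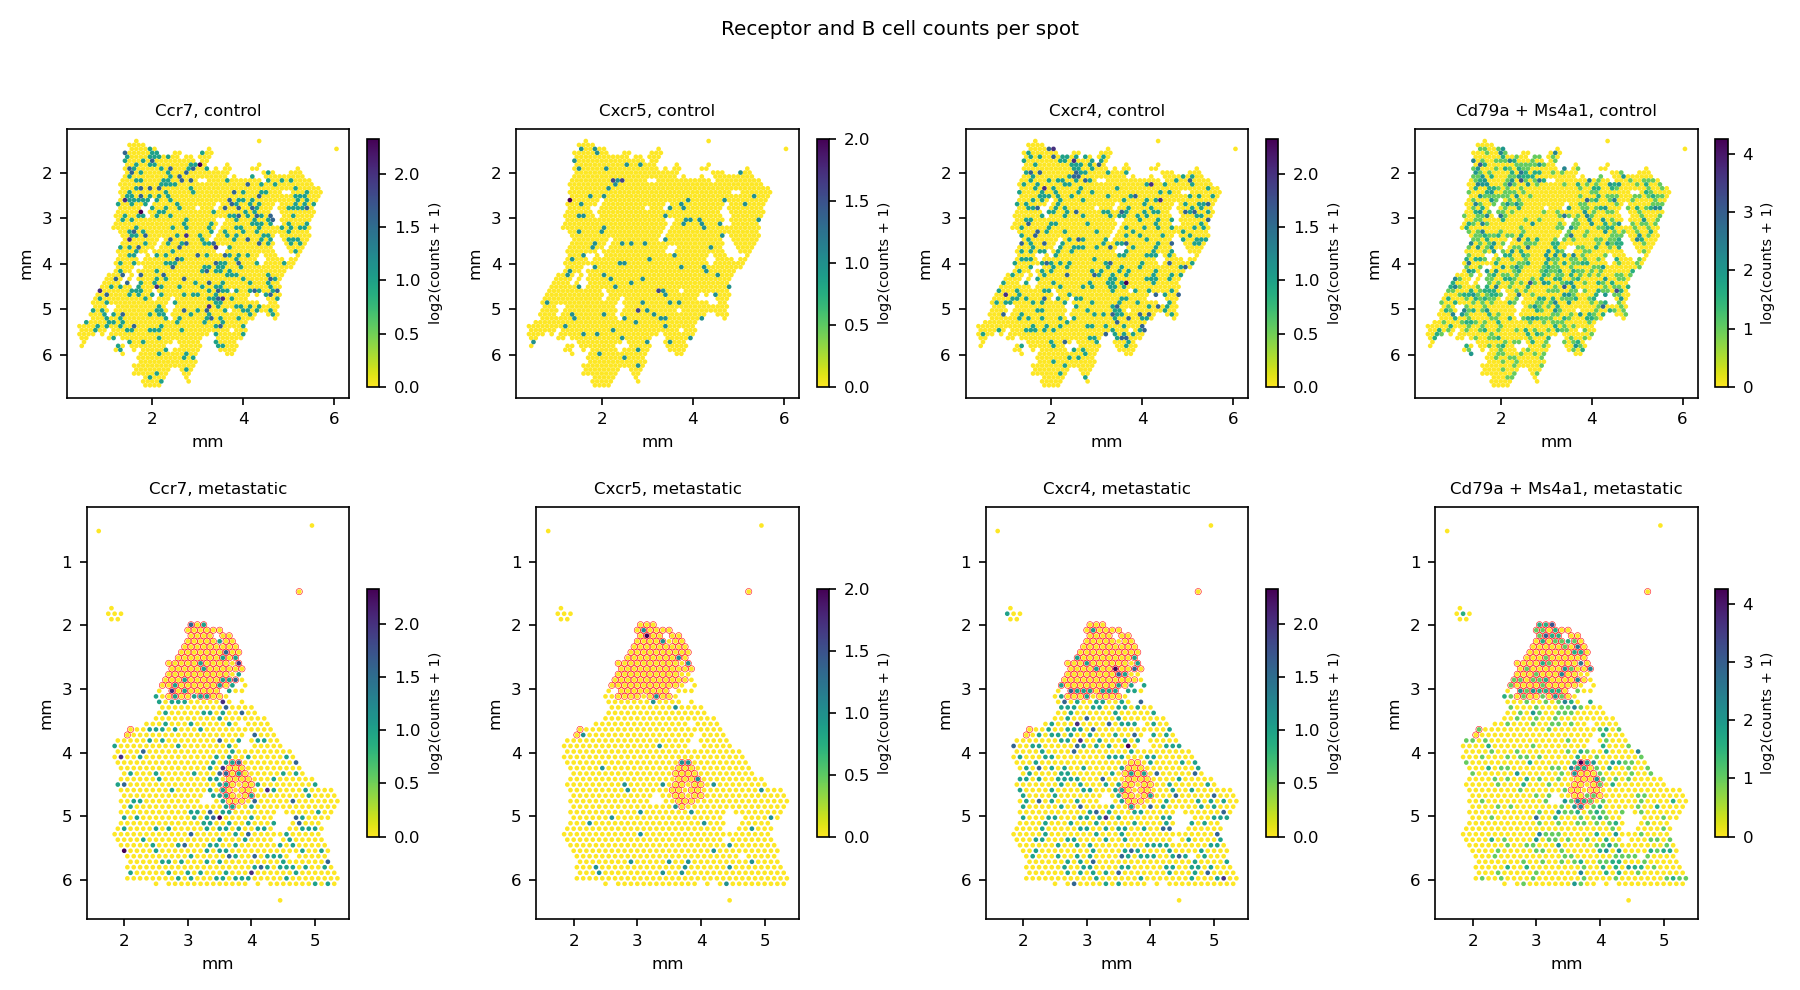
Counts of Ccr7, Cxcr5, Cxcr4 and of Cd79a plus Ms4a1 in every spot, as log2(counts + 1), control on top and metastatic below, with positions in mm and the metastasis cluster outlined in red. Receptor counts are spread over the control section without a large focus, and B cell counts of the metastatic section gather in and next to both metastases.

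Cxcr5 and Ccr7 were higher in spots with more B cell transcripts in both sections. In control spots with 0, 1 to 2 and 3 or more counts of Cd79a and Ms4a1 (1199, 580 and 109 spots), Cxcr5 had 0.0345, 0.0664 and 0.149 CP10k and Ccr7 0.169, 0.335 and 0.377. The metastatic spots (821, 250 and 39) gave Cxcr5 levels of 0.0207, 0.0259 and 0.224 [0.116 to 0.390], and Ccr7 levels of 0.143, 0.207 and 0.466 [0.301 to 0.687]. For both receptors the intervals of the first and last class are apart in both sections. Cxcr4 went from 0.184 [0.161 to 0.209] to 0.306 [0.221 to 0.412] in the control, and from 0.201 [0.175 to 0.230] to 0.279 [0.156 to 0.461] in the metastatic section, where the intervals overlap. Median spot depth rose along with these classes, from 8937 to 13149 counts in the control and from 10784 to 13634 in the metastatic section, and its part was not tested.

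The ligands Cxcl13 and Ccl19 were also higher with B cell transcripts in the metastatic section. Cxcl13 levels over the same classes were 0.0902 [0.0730 to 0.110], 0.204 [0.160 to 0.258] and 0.503 [0.331 to 0.732] there, and 0.0102, 0.0113 and 0.0142 in the control, where the last class rested on 2 counts and the intervals overlap. Ccl21a ran from 1.70 to 2.63 CP10k between the first and last metastatic class and from 2.70 down to 2.07 in the control. Ccl19 ran from 0.0498 [0.0373 to 0.0651] to 0.186 [0.0893 to 0.343] in the metastatic section and from 0.0769 to 0.0924 in the control. By Cd3e, spots with 1 to 2 counts exceeded spots with 0 in the metastatic section for Cxcl13 (0.276 against 0.107), Ccl19 (0.114 against 0.0521) and Ccr7 (0.272 against 0.150), with intervals apart in each case. In the control Ccr7 alone of these 3 had intervals apart (0.342 against 0.223). The metastatic values pool the cluster with the rest of the section. In T-cell-rich spots Cxcl13 had ratios of 1.61 [0.920 to 2.69] within the cluster and 0.966 [0.115 to 3.58] outside it. Both intervals include 1. The 5 metastatic spots with 3 or more Cd3e counts held 0 Cxcl13 counts. Ccl21a did not rise with Cd3e in the metastatic section. It had 1.72 CP10k [1.65 to 1.79] with 0 counts, 1.70 [1.54 to 1.88] with 1 to 2 and 0.850 [0.342 to 1.75] with 3 or more. By the T cell list it did, with ratios of 20.9 [10.7 to 43.9] within the cluster and 4.47 [3.87 to 5.14] outside it. The control had 0.986 [0.827 to 1.17] in T-cell-rich spots.

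B and T cell transcripts themselves gathered at the metastases. Cd3e was at 2.39 times the far level [1.64 to 3.46] in the cluster and at 2.95 times it [1.93 to 4.44] in the margin. Cd79a and Ms4a1 together had 0.554 CP10k [0.465 to 0.654] in the cluster, 0.508 [0.398 to 0.638] in the margin, 0.282 in the middle zone and 0.233 [0.201 to 0.268] far away, with the highest ring, 1.04 [0.801 to 1.33], at the inner rim. The rim ring was also where Cxcr5 (0.114 [0.0457 to 0.234]) stood highest of the inner rings. Ccr7 had 0.325 [0.199 to 0.502] there and 0.372 [0.243 to 0.544] in the first ring outside. The smaller metastasis was the richer in these cells, with 2.35 CP10k [1.71 to 3.16] of Cd79a and Ms4a1 against 0.408 [0.329 to 0.499] in the larger, and 0.588 [0.294 to 1.05] of Ccr7 against 0.114 [0.0744 to 0.167]. For Cxcl13 the order of the 2 metastases could not be told, since its intervals in both overlap. The B cell levels of the rim ring and of the smaller metastasis both include 1 spot with 16 Cd79a and 2 Ms4a1 counts.

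The size of connected lymphoid groups depended on whether the cluster was included. Outside it, the control had 17 groups of at least 3 lymphoid spots, the largest of 13, and the metastatic section 2, of 4 and 3 spots. With the 35 cluster spots past the same threshold added, the metastatic section had 73 such spots, of which 37 formed 3 groups of at least 3 spots, the largest of 23. The group of 4 held 87 Ccl21a counts (13.8 CP10k [11.0 to 17.0]), 6 Ccr7, 8 Cd3e and 7 Cd79a and Ms4a1 counts, and no Cxcl13. The group of 3 was shallow, with a median of 815 counts a spot. Control groups were thin as well. The group of 13 had a median of 4700 counts a spot, with 5 Cd79a and Ms4a1 counts and 0 Cd3e counts. The next, of 11 spots, had a median of 1510 counts a spot. In such shallow spots a single list count can pass the threshold, so the number of groups is no measure of lymphoid aggregates. When lymphoid spots were instead chosen by neighbourhood sums with the cluster included, an approach added after the values were seen, the metastatic section had 2 groups, of 50 and 38 spots. The control had 16 groups by that rule, the largest of 49. The metastatic groups lay at the smaller and the larger metastasis and held Ccl21a at 3.66 [3.10 to 4.30] and 2.78 [2.35 to 3.26] CP10k, Cxcl13 at 0.198 [0.0855 to 0.390] and 0.426 [0.270 to 0.640], and Ccr7 at 0.569 and 0.315. Of the 50 and 38 spots, 25 and 24 lay in the metastasis cluster. Both ligand systems thus occurred in groups that pool cluster spots with tissue outside, which does not place them together in lymphoid aggregates. In the 8 high Cxcl13 spots Ccl21a had 1 count.

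Correlations of the receptors over neighbourhoods were low to moderate. Ccr7 reached r = 0.46 with the T cell list and 0.33 with Cd3e in the metastatic section, and 0.34 and 0.11 in the control. Cxcr5 reached 0.31 and 0.21 with Cd79a and Ms4a1. Ranked genes most like Ccr7 over both sections were Icam1 (r = 0.39 and 0.38), Ifngr1, H2-D1, Arhgef1 and Mlf2, and those most like Cxcr4 were Icam1 (0.41 and 0.42), Klf2, Podxl, Slc9a3r2 and Egfl7, of which Podxl and Egfl7 are endothelial genes. For Cxcr5, ranked in the control alone, they were Arhgef1, Rsrp1, Mat2a, Map4k2 and Fam193b, none above 0.30.

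Genes that act with these chemokines were followed in 5 lists of 35 genes, of which 34 were in the files. Between the sections 9 of the 30 with at least 20 counts were higher and 2 lower past 1.5-fold, where 9.79% of all genes were higher and 14.0% lower. The higher ones included Ccl20 (5.09 [2.64 to 10.6]), the CCR6 ligand, Tnfsf14 (4.85 [2.35 to 11.0]), which encodes LIGHT, Tnf (3.21 [2.09 to 5.02]) and Lta (2.24 [1.34 to 3.81]), which encodes lymphotoxin alpha. Ackr4, the scavenger of CCL19 and CCL21, was lower at 0.443 [0.332 to 0.584], as was Klf2, a transcription factor of lymphocyte egress and endothelium, at 0.603 [0.584 to 0.622].

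Between cluster and far spots 19 of 30 measured genes were higher and 6 lower, where 38.1% of all genes were higher and 24.4% lower, and the lists differed. All 5 measured genes of the CXCR5 and B cell axis were higher in the cluster: Cyp7b1 (4.85), Gpr183 (3.31), Ccl20 (4.96), Tnfsf13b (3.10), the B cell survival factor BAFF, and Tnfrsf13c (4.81), its receptor. Their median log2 ratio was 2.25, against 0.30 over all genes. Of 4 measured genes of the CCR7 axis 0 were higher and 3 lower, Ackr4 (0.0719, on 1 count), S1pr1 (0.128 [0.0932 to 0.172]), the egress receptor, and Klf2 (0.408), with a median of -2.12. In the lymphotoxin and TNF list 7 of 10 were higher and 0 lower, among them Tnf (4.73 [2.62 to 8.68]), Lta (4.96 [2.26 to 11.3]), Nfkb2 (3.25), Relb (2.25) and Ltb (1.65 [1.39 to 1.96]). The CXCR4 list had 2 of 5 higher, Mif (6.19 [5.76 to 6.66]) and Cd74 (2.52), which encode an alternative CXCR4 ligand and its receptor chain, and 2 lower, Dpp4 (0.183) and Ackr3 (0.319), a protease and a scavenger that act on CXCL12. Adhesion and niche genes had 5 of 6 higher, with Vcam1 at 3.71 [3.23 to 4.26] and Itgb7 at 3.98, and Icam1 lower at 0.595.

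In the margin 15 of 27 measured genes were higher than in far spots and 1 lower, where 22.7% of all genes were higher and 6.12% lower. Ccl20 (5.73 [2.36 to 14.0]), Tnf (3.55), Vcam1 (2.74 [2.29 to 3.26]), Itga4 (2.54) and Ltb (2.51 [2.09 to 3.0]) were among the higher. S1pr1 had 0.796 [0.672 to 0.937] and Ackr3 0.982 [0.765 to 1.25] there, both nearer to the far level than in the cluster. The median log2 ratio of the CXCR5 axis was 1.42 and of the CCR7 axis 0.22, against 0.29 over all genes.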

How the data were processed

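Visium libraries of 1 control and 1 metastatic mouse lung section were analysed. The authors deposited unique molecular counts per gene and spot, made per the submitters' processing notes with Space Ranger 1.3.1 on mm10, with the array position of each spot over tissue. No normalization had been applied, and these counts were used as deposited. Counts of features with the same symbol were added. Spots were sorted into compartments by list thresholds over both sections: cardiac muscle 98th percentile, lymphoid 95th, airway and smooth muscle 90th. The metastasis cluster came from k-means (k of 5, 2000 variable genes without the members and the B and T cell lists, 20 principal components) in scikit-learn 1.9.0. Levels, ratios and intervals were computed with scipy 1.17.1, and ratios were counted past 1.5-fold where a gene had at least 20 counts. With 1 section per condition no test was made. No spot filter beyond the deposited tissue call was applied and no doublet caller was run, since spots hold several cells. Named genes were the members, Cd79a, Ms4a1, Cd3e, genes of described lists, and the 5 genes most correlated with each member among genes with at least 100 counts. The calculations were checked on simulated data. Not every gene of each list is reported here by name. Members and lists were chosen with earlier results of these data known. Choices added after the values were seen are named as such. Promoter sequences were read from RefSeq, and gene positions from GENCODE M21. The alternatives tried are listed with their effect in the closing section.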

Additional observations from a re-analysis of the deposited data

How the results depend on the processing

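Over 490 alternative values, 364 stayed within the interval of the main value, 111 moved beyond it without turning a called difference and 15 turned a difference past 1.5-fold to the other side of 1. Among the 462 of these values that are ratios, 65 lay on the other side of 1 from the main value, 50 of them where the main ratio had not passed 1.5-fold on at least 20 counts. No paired analysis was possible because each condition had 1 section. Depth limits the ratios of the members with fewest counts, Cxcr5 and Ccl19 in the metastatic section (43 and 90) and Cxcl13 in the control (22). The causes of the changes were not tested.

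The section ratio of Cxcl13 stayed above 1 in all 10 alternatives, between 1.16 and 13.9. It was 6.79 without metastasis cluster, margin and cardiac-type muscle spots, and 1.16 in airway spots alone. Without the 2 spots with most Cxcl13 it was 10.8, an alternative added after the values were seen. In the same tissue-restricted comparison Ccl21a had 0.805 and Cxcl12 1.13. In alveolar spots alone Ccl19 had 1.16, Ccl21a 0.936 and Cxcl12 1.19. The mean of per-spot CP10k gave 0.725 for Ccl21a, and leaving out lymphoid spots 0.627.

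Single-compartment comparisons were added after the values were seen. In lymphoid spots alone the section ratios were 2.01 for Ccl19, 2.83 for Ccl21a, 1.15 for Cxcl12, 1.25 for Ccr7, 0.366 for Cxcr5 and 0.671 for Cxcr4. Smooth-muscle-rich spots gave 0.875 for Ccl21a, 1.24 for Cxcl12, 1.16 for Ccr7, 3.95 for Cxcr5 and 1.89 for Cxcr4. Airway spots gave 0.348 for Ccl19, 0.568 for Ccl21a, 0.789 for Cxcl12, 1.39 for Ccr7, 1.39 for Cxcr5 and 1.62 for Cxcr4. Several of these rest on very few counts. Cxcr5 had 1 count in each section in smooth-muscle-rich spots and 4 in each in airway spots, so those 2 ratios show no direction. In lymphoid spots it had 2 metastatic and 22 control counts. Ccl19 in airway spots had 2 metastatic and 8 control counts.

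Cluster over far zone, Ccl21a had 0.0778 with library sizes without abundant genes, 0.193 as a mean of per-spot values, 0.178 after thinning, 0.474 with the core taken as the top 6% of the tumour list, 0.0121 for the larger and 1.36 for the smaller metastasis, and 0.0118 in inner and 0.436 in outer spots. Ccl19 had 2.70 for the smaller metastasis and 0.847 in outer spots. Cxcl13 had 3.60 without abundant genes, 3.42 with the tumour list core and 3.67 for the smaller metastasis. Cxcl12 had 0.133 without abundant genes, 0.306 with the tumour list core and 0.333 in outer spots. With the tumour list core Cxcr5 had 0.514 and Cxcr4 1.06. Cxcr5 had 0.765 in inner spots, and Cxcr4 1.21 for the smaller metastasis. The split into inner and outer spots was added after the values were seen.

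Margin over far zone, Ccl21a had 1.52 without abundant genes, 1.60 after thinning, 1.53 and 1.56 with margins of 100 and 300 μm, and 1.3 without lymphoid spots. With the tumour list core Ccl19 had 1.11, Cxcl13 3.98 and Cxcr5 0.923. Cxcl13 had 0.977 for the smaller metastasis, and Cxcr5 0.532 after thinning. Cxcl12 had 0.728 with a margin of 100 μm, 1.26 for the larger and 0.749 for the smaller metastasis.

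Lymphoid over alveolar spots in the metastatic section, Cxcl13 had 1.49 after thinning, 1.82 with the 98th percentile and 3.14 with lymphoid spots chosen by neighbourhoods, a choice added after the values were seen. Cxcr5 had 0 after thinning.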
